A study of Rattus norvegicus with 54 samples.

Results

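In cultures of rat cortical neurons, a virus carrying rMBD3 was compared with a virus carrying GFP alone at the 2 h time point, counted from the induction of epileptiform activity. The members were the 6 libraries labelled AAV_SYN_rMBD3_GFP and the 6 labelled AAV_SYN_GFP at 2 h, 12 of the 54 libraries of the series. They were chosen by construct and time from the labels alone. Each construct had 3 libraries in medium with magnesium, the standard condition, and 3 in medium without magnesium, the condition called epileptic. All cultures came from cortex of rat embryos at day 18 (E18), and culture numbers 1 to 3 were each present in all 4 groups. Both constructs used an adeno-associated virus (AAV) and the SYN promoter, and both carried GFP, so the groups differ in rMBD3 and not in the presence of a virus or of GFP. The series asks what Methyl-CpG binding domain 3 (Mbd3) does in epileptogenesis and also holds untransfected cultures and libraries at 6 h and 24 h. When the viruses were added before the 2 h point is not given in the sources used here.

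Mbd3 is a subunit of the nucleosome remodelling and deacetylase (NuRD) complex, which joins a chromatin remodelling ATPase with histone deacetylases. In mammals Mbd3 differs from its relative Mbd2 in that it binds methylated CpG poorly, and NuRD complexes hold one or the other. NuRD sits at active as well as silent promoters and enhancers and is known for lowering, and fine-tuning, the transcription of genes there. The SYN (synapsin) promoter is active in neurons, so other cells of a culture would carry little of the transgene. Removing magnesium frees the NMDA type of glutamate receptor from its block and drives cultured neurons into repeated bursts of firing.

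The count table names genes by Ensembl identifier, and 0 of its 30560 identifiers matched the symbol table at hand. Genes are therefore described by identifier, position, gene length and chromosome, and by their behaviour in libraries that the comparison did not use. Gene lists by symbol, the neuron and glia markers that would check the labelled cell type, and promoters were not analysed here. Total counts were 14448927 to 39691105 per library, and the 2 shallowest libraries were the GFP cultures 1 and 2 without magnesium. Mitochondrial genes took 1.62% to 2.04% of counts with GFP and 1.41% to 2.65% with rMBD3, and the 50 most abundant genes took 8.87% to 11.2% and 10.4% to 13.2%. A floor of 3 counts was worth 0.0756 to 0.208 CPM, the unit of counts relative to library size, scaled below between libraries by TMM. Culture 1 stood apart from cultures 2 and 3: on the first principal component of the 18 libraries at 2 h, which held 32.3% of the variance, its 6 libraries had 6 of the 6 highest scores. Along the same component the rMBD3 library scored above the GFP library of its culture and medium in 6 of 6 pairs, so the difference between cultures and that between constructs moved together there. On the second component, with 12.4% of the variance, every rMBD3 library scored below 0 (-55.7 to -7.45). Every GFP and untransfected library scored above 0 there (1.68 to 40.9). The transgene was among the genes used for both components. What the culture difference adds to the results below was not tested, and each pair was compared within its culture. The untransfected culture 1 library with magnesium also had 3.42% mitochondrial counts, against 1.38% to 1.95% in the other untransfected libraries at 2 h. The main count, the named genes and the gene classes are given below with and without culture 1.

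ENSRNOG00000028956 was taken as the gene that carries the transgene's reads with its levels in these libraries already known and no symbol to identify it. Its values are therefore a description and no check of the labels. It lies on chromosome 7 at 9313098 to 9320165, plus strand (mRatBN7.2). With GFP it was at 110 to 174 CPM, with a mean of 140 ± 26.5 (SD, n = 6), and in the 6 untransfected cultures it was at 117 to 198 CPM. With rMBD3 it was at 7211 to 18071 CPM, with a mean of 14440 ± 4055 (SD, n = 6). Every rMBD3 library lay far above every other one, and the lowest was culture 2 without magnesium. The log2 fold change was 6.66 ± 0.22 (SE). Reads of the rat gene and of the construct cannot be told apart in the counts, so the level of the endogenous gene cannot be read from it. It is left out of all counts below.

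Beyond the transgene, 3231 of 15333 genes tested (21.1%) differed between rMBD3 and GFP at 2 h at a Benjamini-Hochberg adjusted p under 0.05 in edgeR's quasi-likelihood test, with medium and culture number as blocks. Of these, 1682 (11%) were higher and 1549 (10.1%) were lower with rMBD3. Called genes were thus nearly even in number in this fit, but not in size. Those that rose had a median log2 fold change of 0.58 with an interquartile range of 0.37 to 0.90, and those that fell had a median fall of 0.39 with a range of 0.30 to 0.53. A change of at least 1 on the log2 scale was called in 335 genes that rose (2.18% of genes tested) and in 63 that fell (0.411%), 2.6% in all. The median abundance of the 335 was 7.32 CPM and that of the 63 was 1.34 CPM, against 22.8 CPM for all genes tested. Of the genes that fell, 1098 (70.9%) changed by under 0.5, against 686 (40.8%) of those that rose. The difference had the same sign in 6 of 6 pairs of same-numbered cultures for 1386 of the genes that rose and 1251 of those that fell. The genes were called on these same pairs, which come from 3 cultures, so these counts are a description. The last gene called had an adjusted p of 0.0499893 in edgeR with a log2 fold change of -0.53, and the first not called had 0.0500014 with 0.24. Without the culture block the count was 464, with 366 higher and 98 lower, all of them among the 3231. A fall in a bulk culture could be fewer cells of a type or less RNA per cell, which cannot be told apart here. The p-values of the blocked fit measure the scatter left after the means of culture and medium are taken out, not the spread between cultures. Both media of a culture count in it as separate pairs. Whether the 3 culture numbers stand for separate litters is not given in the sources used here.

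**Figure D1:**
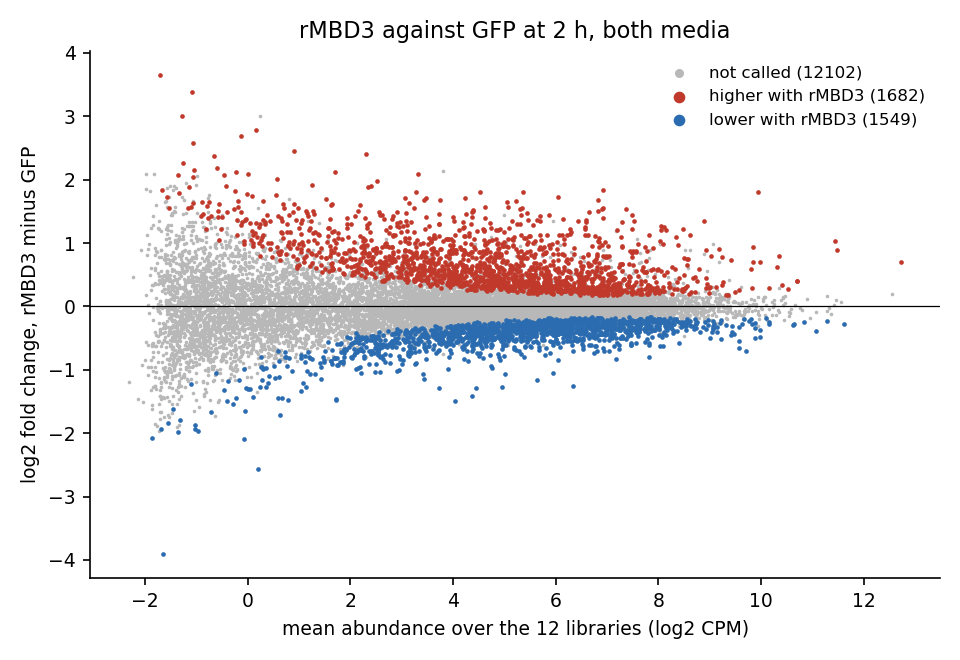
Log2 fold change of each gene tested (rMBD3 minus GFP at 2 h, both media) against its mean abundance over the 12 libraries in log2 CPM, without the transgene. The 1682 genes called higher (red) reach further from 0 than the 1549 called lower (blue) over most of the range of abundance, and grey points were not called.

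Genes that rose and genes that fell differed in abundance and structure. The median abundance was 28.4 CPM for genes that rose, 45.4 CPM for genes that fell and 22.8 CPM for all genes tested. Genes that fell spanned a median of 49453 bases of genome, against 22981 bases for genes that rose and 22202 bases for all. Their median exonic length was 4146 bases against 3021.5 and 2975 bases, and they held a median of 13 exons, merged over transcripts, against 10 and 9. The share called lower also moved with abundance, from 1.73% of 3000 genes under 1 log2 CPM to 15.9% of 716 genes over 8 log2 CPM, while the share called higher was 3.93% and 11.5% in the same classes. Between them the share called higher was 13.2% at 1 to 4, 12.8% at 4 to 6 and 12.1% at 6 to 8 log2 CPM. Medians over all tested members, called or not, are therefore also given for the main gene classes.

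The 2 genes with the largest rises under the naming rule showed how much the cultures differed. ENSRNOG00000019780 lies on chromosome 2 at 195849062 to 195863794, minus strand, with 6 merged exons. It was at 0.473, 0.759 and 1.65 CPM (lowest, median and highest) in the 6 GFP libraries and at 1.67, 1.87 and 15.8 CPM in the 6 rMBD3 libraries. The groups did not overlap but nearly met, and both culture 1 libraries stood high with rMBD3, at 10.3 CPM with magnesium and 15.8 CPM without. Its log2 fold change was 2.12 ± 0.29 (SE; edgeR, adjusted p = 0.000351), with 2.27 in magnesium medium and 1.98 without magnesium. The second gene, ENSRNOG00000055078 on chromosome 5 at 129139038 to 129156348, minus strand, has 12 merged exons. It was at 0.389, 0.756 and 9.47 CPM with GFP and at 0.987, 2.18 and 58.4 CPM with rMBD3. The groups overlapped, because culture 1 was high under both constructs: 7.06 and 9.47 CPM with GFP, and 36.2 and 58.4 CPM with rMBD3. Within every culture and medium rMBD3 was the higher, but the naming rule required the same sign in all 6 pairs. The log2 fold change was 2.10 ± 0.25 (SE; edgeR, adjusted p = 0.000157).

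The 2 genes with the largest falls under the naming rule had culture 1 at the low end. Among all called genes, named or not, the largest fall was 3.91 and the largest rise 3.66 on the log2 scale. ENSRNOG00000006639 lies on chromosome 3 at 51145146 to 51293516, minus strand, a long gene of 148371 bases with 27 merged exons. It was at 6.65, 22.6 and 38.1 CPM with GFP and at 1.05, 10.7 and 17.8 CPM with rMBD3. The groups overlapped between cultures, and the lowest GFP value was that of culture 1 with magnesium. In each of the 6 pairs rMBD3 was the lower, which the naming rule required. Expression fell by 1.5 ± 0.26 on the log2 scale (SE; edgeR, adjusted p = 0.00244). ENSRNOG00000009564 lies on chromosome 4 at 83431758 to 83437436, plus strand, with 3 merged exons. It was at 0.656, 5.32 and 7.47 CPM with GFP and at 0.293, 1.15 and 4.52 CPM with rMBD3. The groups again overlapped, with culture 1 low under both constructs, and the gene fell by 1.47 ± 0.27 (SE; edgeR, adjusted p = 0.00182). All 4 genes changed in the same direction in 6 of 6 pairs, but only such genes could be named. Without culture 1 their log2 fold changes were 1.52, 1.64, -1.13 and -1.52 in the order given, with adjusted p-values in edgeR of 0.0117, 0.0135, 1.04e-05 and 0.00151. Without the culture block none of the 4 passed, with adjusted p-values in edgeR of 0.0551, 0.258, 0.241 and 0.246 in the order given.

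**Figure D2:**
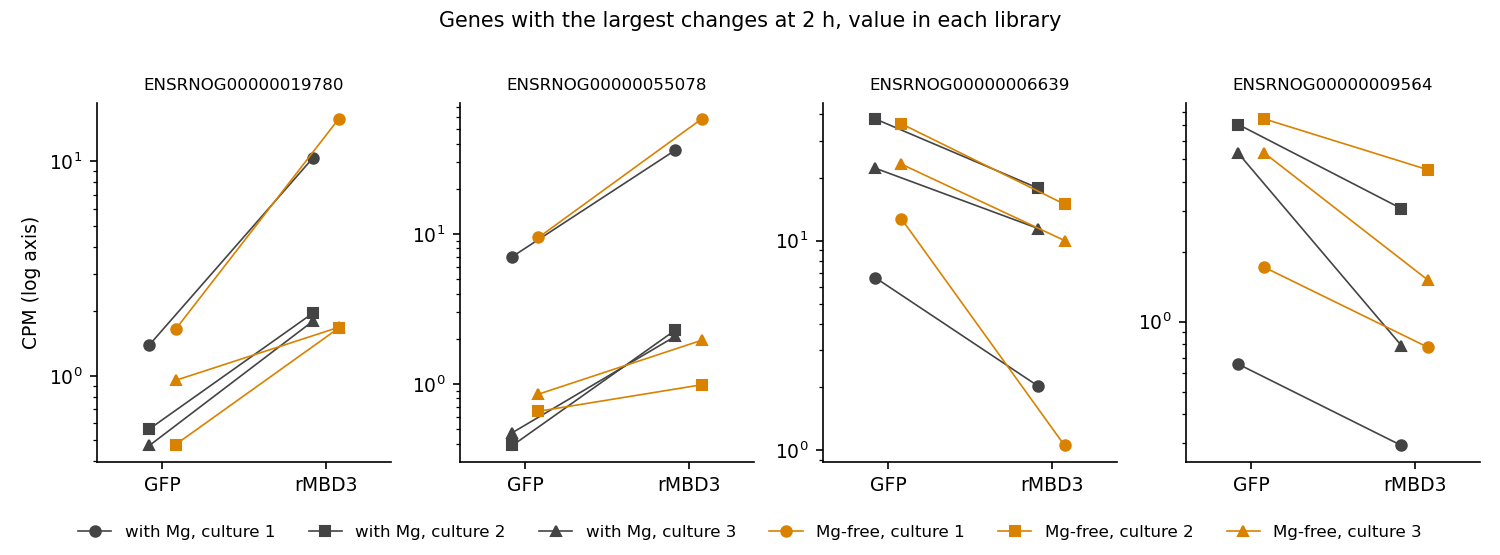
CPM on a log axis of the 4 named genes in each of the 12 libraries, with a line joining the GFP and rMBD3 libraries of the same culture and medium. Within each gene all 6 lines run the same way, which the naming rule required. Culture 1 (circles) sits above the others in the 2 genes that rose and below them in the GFP libraries of the 2 that fell.

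Set beside untransfected cultures of the same time, the 4 genes had larger fitted differences with rMBD3 than with GFP, but for 1 of them this rested on culture 1. These comparisons share libraries with the main one, so the values are given side by side only. ENSRNOG00000019780 differed from untransfected cultures by 1.80 with rMBD3 (log2; edgeR, adjusted p = 0.00373) and by -0.31 with GFP (0.876). For ENSRNOG00000055078 the values were 2.06 with rMBD3 (edgeR, adjusted p = 0.169) and -0.04 with GFP (0.994). For ENSRNOG00000006639 they were -1.03 (edgeR, adjusted p = 0.107) and 0.46 (0.778), and for ENSRNOG00000009564 they were -1.03 (0.0791) and 0.35 (0.819). Only the first of the 4 passed the test against untransfected cultures, and it did so with rMBD3. Without culture 1 ENSRNOG00000055078 was at 0.63 with rMBD3 (edgeR, adjusted p = 0.479) and at -1.06 with GFP (0.354). ENSRNOG00000019780 was then at 1.35 with rMBD3 (edgeR, adjusted p = 0.0464), ENSRNOG00000006639 at -0.71 (0.0241) and ENSRNOG00000009564 at -1.15 (0.0769). Without the untransfected culture 1 library with magnesium alone, the rMBD3 values were 1.94, 1.43, -1.16 and -1.12 in the order first given, with adjusted p-values in edgeR of 0.00288, 0.128, 0.0352 and 0.0408.

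The difference was present in both media. With magnesium, 1017 genes were called (6.63% of 15333), 651 higher (4.25%) and 366 lower (2.39%). Without magnesium, 1153 were called (7.52%), 641 higher (4.18%) and 512 lower (3.34%). The interaction of construct and medium, which tests whether the rMBD3 difference itself depended on magnesium, was called for 0 genes in edgeR, with 590 at an unadjusted p under 0.05 and a smallest adjusted p of 0.872. DESeq2 called 4. Across the 15333 genes, the log2 fold changes of the media had a Spearman correlation of 0.57. This describes genes and not replicates, and the media share culture numbers but no library. With magnesium the count was 117 without culture 2 and 425 without culture 3, and without magnesium it was 82 without culture 2 and 650 without culture 1. Without the culture block both counts were 0, and the counts of the additive fit rest on both media together.

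The size of the response differed between cultures. In the genes called higher, the median log2 difference between the paired libraries was 0.81 in culture 1, 0.55 in culture 2 and 0.40 in culture 3 with magnesium, and 0.64, 0.61 and 0.39 without. In the genes called lower it was -0.46, -0.37 and -0.25 with magnesium and -0.62, -0.38 and -0.25 without. These genes were chosen on the same libraries, so the values are a description. Culture 3 had the smallest median in both media and both directions. Its transgene level was 18071 CPM with magnesium and 15897 CPM without, the highest and the third highest of the 6 libraries. Culture 2 without magnesium had the lowest transgene level, 7211 CPM, and a median of 0.61 in the genes called higher. Whether the transgene level bears on the size of the response was not tested.

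A culture that took no part in choosing the genes gave the same direction for most of them. Genes called in cultures 2 and 3 had the same sign in culture 1 for 1532 of 1605 higher genes (95.5%) and 1200 of 1303 lower genes (92.1%). With culture 2 left out the shares were 551 of 558 (98.7%) and 212 of 214 (99.1%), and with culture 3 left out they were 1081 of 1175 (92%) and 871 of 1037 (84.0%). Over all genes tested, 47.8% to 48.8% were higher with rMBD3 in the left-out culture. Leaving out culture 2 lowered the count called from 3231 to 773, with 559 higher and 214 lower. Without culture 1 it was 2909 (1606 higher, 1303 lower), and without culture 3 it was 2215 (1177 higher, 1038 lower). The GFP library of culture 2 without magnesium, 1 of the 2 shallowest, was the single library whose loss lowered the count by over 1.5 times, to 2110.

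Genes that change as untransfected cultures go from 2 h to 6 h made up a large part of the response. In untransfected cultures 4293 of 16224 genes tested (26.5%) differed between 6 h and 2 h, 1976 rising (12.2%) and 2317 falling (14.3%). That comparison shares no library with the rMBD3 comparison, but it has the same culture numbers. Of the risers, 1940 were tested for rMBD3 at 2 h, and 724 of them (37.3%) were higher with rMBD3 while 6 (0.309%) were lower. Of 2315 genes that fall with time, 794 (34.3%) were lower with rMBD3 and 27 (1.17%) were higher. Among the 10959 genes with no call over time the shares were 8.47% higher and 6.83% lower. The median log2 fold change at 2 h over all members was 0.26 in the risers, -0.02 in genes with no call and -0.19 in the genes that fall. In each of the 6 pairs the risers' median was above 0 (0.14 to 0.58) and that of the falling genes was below 0 (-0.35 to -0.11). Without culture 1 in the rMBD3 comparison the medians were 0.22 and -0.15, with 35.8% of the risers called higher (all genes 10.4%) and 29.8% of the falling genes called lower (all genes 8.47%). Without culture 2 the medians were 0.25 and -0.18, with shares of 14.8% (all genes 3.62%) and 6.48% (all genes 1.39%).

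Read from the other side, 43% of the 1682 genes higher with rMBD3 rise from 2 h to 6 h in untransfected cultures and 1.61% fall, against 12.7% and 15.1% of all genes tested. Of the 1549 genes lower with rMBD3, 51.3% fall and 0.387% rise. From 2 h to 24 h untransfected cultures changed in 49.1% of 16224 genes, with 25.5% rising and 23.6% falling. On that basis, 55.9% of the higher genes rise and 5.71% fall, and 62.4% of the lower genes fall and 4.45% rise, against 25.7% rising and 24.9% falling of the genes tested for rMBD3. Across 15214 genes the Spearman correlation of the rMBD3 difference at 2 h with the untransfected change was 0.52 for 6 h and 0.42 for 24 h, as a description across genes. Because the untransfected culture 1 library with magnesium at 2 h stood apart, the classes were rebuilt without it. Then 42.8% of the risers were higher and 0.309% lower with rMBD3 (median 0.32), and 35.4% of the falling genes were lower and 1.09% higher (median -0.19). Rebuilt without any untransfected culture 1 library, the shares were 31% and 1.06% for the risers (median 0.19) and 31.4% and 1.64% for the falling genes (median -0.17). In the same rebuilt comparison 58.9% of the higher genes rise and 66.2% of the lower genes fall from 2 h to 24 h, against 24.2% rising and 27.2% falling of all tested. The Spearman correlations were then 0.45 for 6 h and 0.43 for 24 h over 15169 genes. Of the named genes, ENSRNOG00000019780 rose by 2.68 on the log2 scale from 2 h to 6 h in untransfected cultures (edgeR, adjusted p = 0.00285). ENSRNOG00000006639 fell by 1.78 (edgeR, adjusted p = 0.0298) and ENSRNOG00000009564 fell by 1.69 (edgeR, adjusted p = 0.0331). For ENSRNOG00000055078 the change was 1.51 (edgeR, adjusted p = 0.189).

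**Figure D3:**
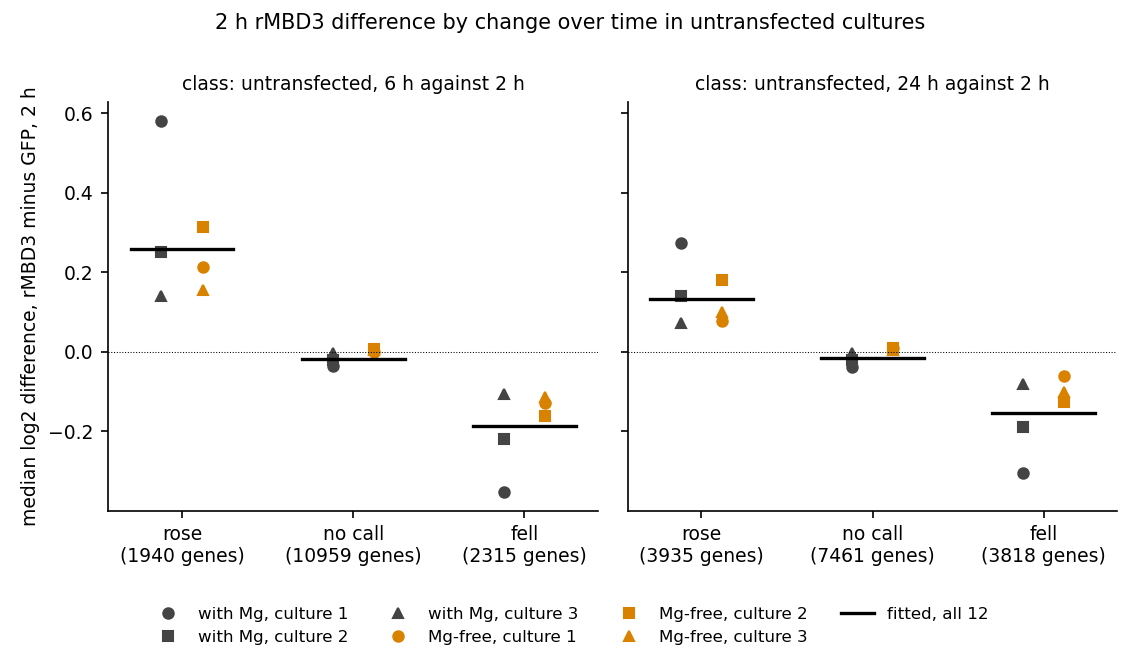
Median log2 difference at 2 h (rMBD3 minus GFP) of genes grouped by their change in untransfected cultures from 2 h to 6 h (left) and to 24 h (right). Points are the 6 pairs of libraries by culture and medium, and bars are the median of the fitted values. The risers lie above 0 in all 6 pairs and the falling genes below 0 in all 6.

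The longer the gene, the larger was the share called lower. By genomic span it ran from 4.57% of 4442 genes under 10 kb, through 7.25% at 10 to 30 kb, 13.4% at 30 to 100 kb, 18.2% at 100 to 200 kb and 21.6% at 200 to 500 kb, to 39.6% of 197 genes over 500 kb. The share called higher was 10.4% to 13.4% in the first 5 classes and 5.08% in the longest. Over all members the median log2 fold change was 0.03, 0.00, -0.06, -0.08, -0.12 and -0.23 in the same order. In the longest genes the median was below 0 in 6 of 6 pairs, at -0.36 to -0.11. Very long genes in neurons include many for synaptic adhesion and ion channels, but which members these were was not analysed here. The 197 genes overlapped with those that change over time: 112 fall from 2 h to 6 h in untransfected cultures, and 65 of these (58%) were lower with rMBD3, with a median of -0.30. Among the 75 long genes with no call over time, 13 (17.3%) were lower and 5 (6.67%) were higher, with a median of -0.13. The 10 long genes that rise over time went the other way, with 5 (50%) higher, 0 lower and a median of 0.60. Without culture 1 the median of the longest genes was -0.18 with 29.9% called lower (all genes 8.47%), and without culture 2 it was -0.23 with 9.14% called lower (all genes 1.39%). In the fit of all 54 libraries 3.55% were called lower and 3.05% higher (all genes 2.07% and 3.95%), with a median of -0.26, and without the culture block 3.55% and 3.05% (all genes 0.639% and 2.39%), with a median of -0.22. At the later times the median of the longest genes was -0.08 at 6 h and -0.26 at 24 h, but the other classes did not keep their order. Under 10 kb it was -0.04 and -0.08, at 30 to 100 kb 0.03 and 0.07, and at 100 to 200 kb 0.05 and 0.09. At 24 h 7.37% of genes under 10 kb were called lower, against 5.02% at 30 to 100 kb. The shares were 8.37% at 200 to 500 kb and 14.1% over 500 kb (all genes 6.22%).

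On chromosome X more genes fell than rose. Of 530 tested, 93 (17.5%) were called lower and 29 (5.47%) higher, with a median log2 fold change of -0.14. The autosomes had medians from -0.07 on chromosome 18 to 0.05 on chromosome 20, and shares called lower from 3.96% on chromosome 19 to 13.1% on chromosome 4. In each of the 6 pairs the median of chromosome X was below that of all genes, at -0.26 to -0.03. The difference was present at both gene lengths: under 30 kb the median was -0.11 on chromosome X and 0.02 on the autosomes, and from 30 kb up it was -0.21 and -0.07. On X, 129 genes fall from 2 h to 6 h in untransfected cultures, and 63 of these (48.8%) were lower, with a median of -0.27. On the autosomes the values were 33.5% and -0.18. Of 357 X genes with no call over time, 30 (8.4%) were lower and 20 (5.6%) higher, with a median of -0.11. Such autosomal genes had 6.8%, 8.59% and -0.02. Of 38 X genes that rise, 9 (23.7%) were higher and 0 lower, with a median of 0.22. For rMBD3 against GFP at 6 h the median of chromosome X was -0.05 and at 24 h it was 0.00. Without culture 1 its median was -0.09, with 16.5% called lower and 5.49% higher (all genes 8.47% and 10.4%). Without culture 2 its median was -0.13, with 1.9% called lower and 1.52% higher (all genes 1.39% and 3.62%). Of 4 genes of chromosome Y tested, 0 were called, with a median of -0.23. Of 20 genes of the mitochondrial chromosome, 0 were called, with a median of 0.16.

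**Figure D4:**
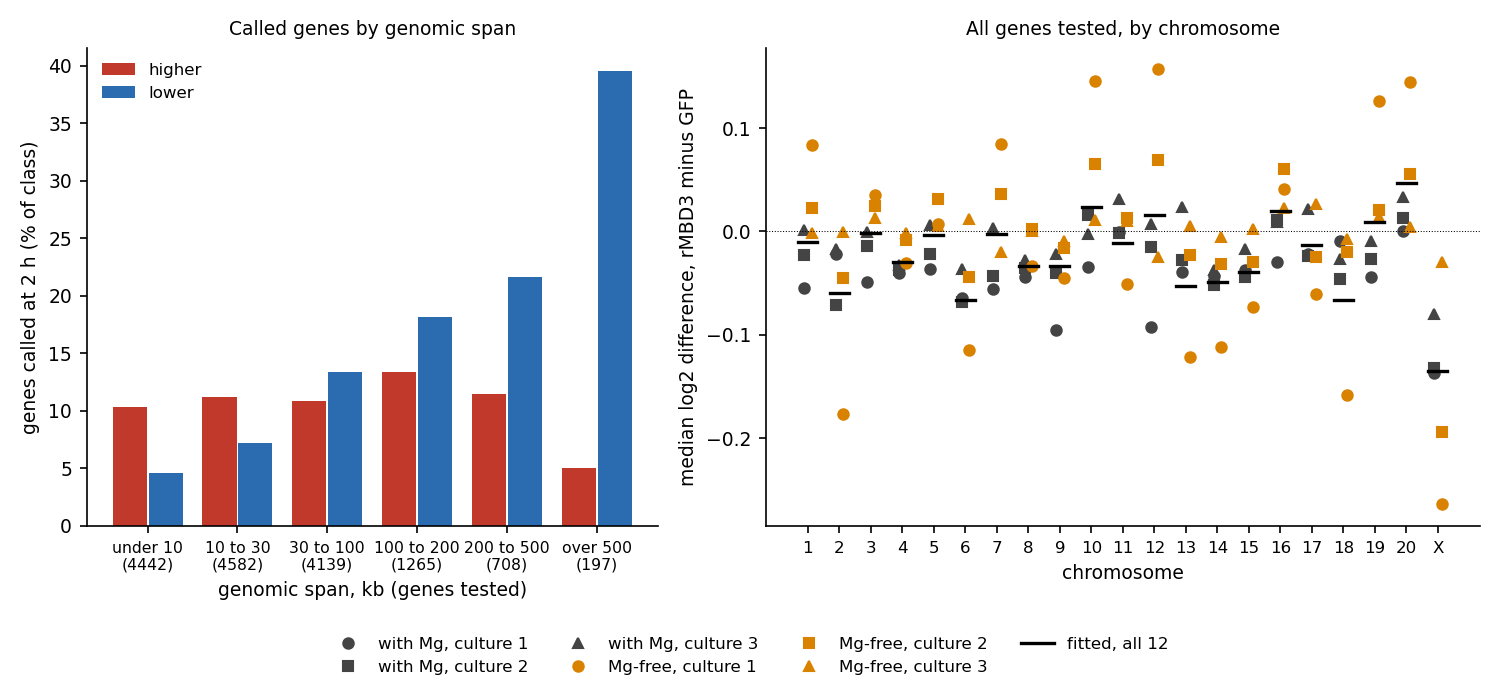
Left, share of genes called higher (red) and lower (blue) with rMBD3 at 2 h by genomic span, with the number tested in brackets. Right, median log2 difference of all genes tested on each autosome and on chromosome X in each of the 6 pairs (points) and in the fit (bars). Among the chromosomes drawn, X has the lowest bar, at -0.14.

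Counting neighbours among the genes tested, 1219 runs of genes that rose and 1131 runs of genes that fell held a single gene. Runs of 2 numbered 179 and 155, and runs of 3 numbered 25 and 28. With 11% of genes tested called higher and 10.1% called lower, most runs would hold a single gene under random placement too. Whether called genes neighbour each other more or less often than these shares give was not tested. Runs of 4 numbered 6 in each direction. A single run was longer, with 6 neighbouring genes that rose, on chromosome 10 from 87852890 to 88048296, a stretch of 195 kb. Its log2 fold changes were 0.28 to 1.81 and its highest adjusted p in edgeR was 0.0434. It was singled out after its values were seen.

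The 6 h and 24 h libraries were not used in the 2 h comparison. They show how the same genes stood later, in other libraries of the same culture numbers. At 6 h rMBD3 differed from GFP in 954 of 15490 genes (6.16%), 706 higher (4.56%) and 248 lower (1.6%). Of the genes higher at 2 h, 1591 of 1679 tested at 6 h (94.8%) were on the same side, with a median log2 fold change of 0.40 at 6 h against 0.58 at 2 h. Called in the same direction at both times were 481 genes, which is 28.6% of the 2 h list and 68.1% of the 6 h list, and 0 were called in the opposite direction. Of the genes lower at 2 h, 1290 of 1543 (83.6%) were on the same side at 6 h with a median of -0.21 against -0.39. Called lower at both times were 157, which is 10.1% of the 2 h list and 63.3% of the 6 h list, and 2 were called higher. Over all genes tested at 6 h, 50.5% were higher with rMBD3. The 6 h count of 954 was 4 without culture 3, 192 without culture 2 and 16 without the culture block.

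At 24 h, 1646 of 15452 genes differed (10.7%), 728 higher (4.71%) and 918 lower (5.94%). The genes higher at 2 h were on the same side in 1416 of 1676 (84.5%) with a median of 0.31, and 418 were called again, 24.9% of the 2 h list and 57.4% of the 24 h list. The genes lower at 2 h were on the same side in 1034 of 1533 (67.4%) with a median of -0.15, and 248 were called again, 16% of the 2 h list and 27% of the 24 h list. Opposite calls numbered 9 and 12. Over all genes tested at 24 h, 51.8% were higher. The 24 h count of 1646 was 16 without culture 3, 756 without culture 2 and 1 without the culture block. The transgene was at 7973 to 10860 CPM at 6 h and at 2285 to 8124 CPM at 24 h with rMBD3. Every 24 h library was thus below 5 of the 6 libraries at 2 h.

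**Figure D5:**
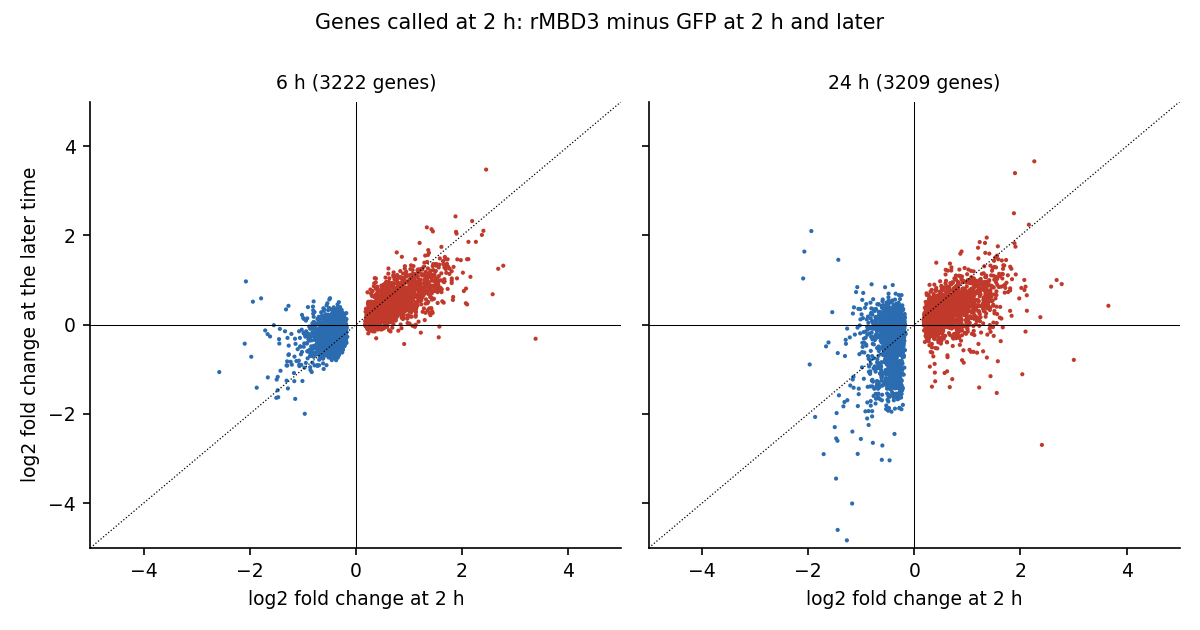
Log2 fold change of the genes called at 2 h (rMBD3 minus GFP) at 2 h on the horizontal axis and at 6 h (left) or 24 h (right) on the vertical axis, with red for genes higher and blue for genes lower at 2 h. The dotted line marks equal change, and 94.8% of red and 83.6% of blue points keep their side at 6 h against 84.5% and 67.4% at 24 h.

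Whether the effect of rMBD3 itself changed with time was tested in 1 model of the 36 rMBD3 and GFP libraries. Between 6 h and 2 h the effect differed in 0 of 16659 genes in edgeR, with 1419 at an unadjusted p under 0.05 and a smallest adjusted p of 0.0595, while DESeq2 called 258. Between 24 h and 2 h it differed in 1306 genes (7.84%), 435 towards higher (2.61%) and 871 towards lower (5.23%) at 24 h. That count was 8 without culture 3, 394 without culture 2 and 2 without the culture block. ENSRNOG00000055078 had a log2 fold change of 1.47 at 6 h (edgeR, adjusted p = 0.00808) and of -0.15 at 24 h (0.838), and the difference from 2 h to 24 h was -2.21 (0.00577). ENSRNOG00000019780 stood at 1.86 at 6 h (edgeR, adjusted p = 0.0142) and at 0.31 at 24 h (0.705). ENSRNOG00000006639 remained lower with rMBD3, by -1.64 at 6 h (edgeR, adjusted p = 0.00461) and by -2.30 at 24 h (0.00361). ENSRNOG00000009564 had values of -1.47 at 6 h (edgeR, adjusted p = 0.162) and -3.45 at 24 h (0.0648), where its 6 rMBD3 libraries were at 0 to 0.195 CPM and 3 counts were worth 0.103 to 0.127 CPM.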

How the data were processed

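Libraries were made from cultures of rat embryonic cortex with a stranded mRNA kit, per the labels' protocols. The authors deposited counts of read pairs per gene, made with featureCounts 2.0.0 on the Ensembl release 105 annotation of mRatBN7.2, counting strand in reverse (setting 2) and dropping reads of mapping quality under 3, per the file headers. The labels' protocols name STAR and the rn6 genome, and the submitters' processing notes name mRatBN7.2. Coordinates are those of the count table, and gene length columns come from it as deposited. A second deposited table of log2 values was not used.

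From the counts, edgeR 4.0.16 in R 4.3.3 (filterByExpr with a minimum count of 10 and minimum total of 15, TMM, robust quasi-likelihood fit) tested 15334 of 30560 genes, the transgene included, in the 12 libraries, with medium and culture number as additive blocks and Benjamini-Hochberg adjustment at 0.05. Standard errors were derived from the fold change and its F statistic. Floors cover counting error only. Later times, media, interaction and untransfected cultures were fitted with the same settings. DESeq2 1.42.0 (genes with a total of at least 10) was an alternative. The culture number is given in the labels as the culture of origin. Same-numbered libraries of different groups deviated together (mean correlation 0.395 over 18 pairs, lowest 0.166, highest 0.604, against -0.188 for other numbers), and the biological coefficient of variation was 15.2% with the block and 25.6% without. No 2 libraries of a group looked like copies of one (chi-square per gene 11.5 to 147, over genes with at least 20 counts).

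Named genes were those called with a mean log2 CPM of at least 1 and 1 sign in 6 of 6 pairs, by size of fold change, at most 2 per direction because no symbols matched. The comparison, lists and classes were chosen with earlier results of these data known, and the classes by untransfected change, the closer description of chromosome X and of spans over 500 kb, and the neighbour runs were added after the values were seen. On simulated counts for this comparison (15077 genes, 200 changed), 75% of 2-fold and 93% of 4-fold changes were recovered, with 3.45% false calls. The counts were drawn from the fitted additive model, so an rMBD3 effect that differs between cultures could not occur in them. The 3.45% therefore does not give the share of false calls among the genes called in the data.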

Additional observations from a re-analysis of the deposited data

Results flagged for a closer look

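The effect of rMBD3 on 1306 genes differed between 24 h and 2 h by a test of the difference itself (edgeR, 7.84% of 16659 genes), which singled it out beside the difference between 6 h and 2 h, where 0 genes passed. The 1306 included 435 genes with a more positive and 871 with a more negative difference at 24 h. The count rested on cultures 2 and 3: it was 8 without culture 3, 394 without culture 2 and 1436 without culture 1.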

How the results depend on the processing

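The 3231 genes called at 2 h kept their sign under every alternative tried in which they could be compared. Each alternative took the 2 h difference from the same libraries or a part of them, which leaves little room for a change of sign. The number called depended on the culture block: 464 without it. Without the block the counts were also 0 with magnesium, 0 without magnesium, 16 at 6 h, 1 at 24 h, 0 for the interaction, 0 for 6 h minus 2 h and 2 for 24 h minus 2 h. The main count was 1034 in a fit of all 54 libraries (678 higher, 356 lower). It was 705 with magnesium medium alone (488 higher, 217 lower) and 227 with magnesium-free medium alone (208 higher, 19 lower). Leaving out 1 culture gave 773 to 2909, and leaving out 1 library, an alternative added after seeing the data, 2110 to 3019. With a culture left out the other counts were 117 to 758 with magnesium, 82 to 1109 without, 0 to 0 for the interaction, 4 to 1170 at 6 h, 16 to 1720 at 24 h, 0 to 0 for 6 h minus 2 h and 8 to 1436 for 24 h minus 2 h. DESeq2 called 3864 genes at 2 h, 1652 with magnesium, 2148 without, 4 for the interaction, 1895 at 6 h, 2408 at 24 h, 258 for 6 h minus 2 h and 2140 for 24 h minus 2 h. Fewer libraries or a larger estimated spread enter several of these fits, and beyond that the cause was not tested. Other size factors, no count filter and removal of the transgene gave 3169, 2844 and 3237. With a culture left out, class medians were 0.22 to 0.33 for genes rising from 2 h to 6 h, -0.22 to -0.15 for genes falling, -0.31 to -0.18 over 500 kb and -0.18 to -0.09 on chromosome X. The 4 named genes, chosen for the same sign in all pairs, kept their direction throughout. They lost the call without the block and in magnesium-free medium alone, and ENSRNOG00000055078 and ENSRNOG00000009564 lost it in the fit of all 54. Symbol lists and promoters, though planned, were not run. Genes near 3 counts per library cannot show small changes.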
